A study of Mus musculus with 24 samples.

Results

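The comparison described here set the endothelium of leg muscle from galectin-3 knockout (KO) mice against that from wild-type (WT) mice, both after 8 weeks on a high-fat diet (HFD). Its members were the 6 arrays labelled KO HFD or WT HFD from skeletal muscle, 3 in each group, out of 24 arrays in the series. The other arrays carried aortic endothelium and muscle endothelium of mice on chow. KO mice were B6.Cg-Lgals3 tm1Poi/J and carried a targeted deletion in Lgals3, the galectin-3 gene, and WT mice were C57BL/6J. All were male, went on the diet at 8 weeks of age and were fed 60% (HFD) or 12% (chow) of their calories as fat. In each of 3 trials the leg muscles of 3 mice (3 to 4 by the deposited description) were pooled for each array, and approximately 10000 live CD105+/CD45- cells were sorted for RNA. The KO and WT arrays of a trial lay on 1 slide with the chow arrays of that trial. WT and KO are used below as the arrays are labelled. The KO line differs from WT in every tissue and throughout life, so that an effect within the endothelium and an effect of the whole animal cannot be told apart.

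Galectin-3 is a lectin that binds galactose-containing sugar chains on glycoproteins and also binds advanced glycation end products, the sugar-modified proteins that accumulate in diabetes. It is best known from macrophages, fibroblasts and epithelia. The capillary endothelium of muscle delivers glucose and fatty acids to the fibres. It holds lipoprotein lipase on its luminal face through Gpihbp1 and takes up fatty acids with Cd36 and Fabp4. The question of the comparison was which transcripts of this endothelium differed between the strains once both were on HFD.

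Levels are given as log2 of the processed signal over the 75th percentile of the array, so that 0 is the level of a spot at that percentile. The 75th percentile lay between 2390 and 4755 intensity units on the 6 arrays, and between 59.5% and 75.7% of the spots were well above background, with no saturated spot. All 20 endothelial markers were well above background on all 6 arrays (among them Pecam1, Cdh5, Kdr and Eng, the last encoding the sorted surface protein CD105), and their mean log2 level lay between 4.60 and 4.84 in WT HFD and between 4.68 and 5.03 in KO HFD. Marker lists of muscle fibres, fibroblasts and macrophages were detected too, and their levels are given with the results below. In RNA from sorted cells in bulk, a change in the number of cells of a type and a change in RNA per cell cannot be told apart.

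Before the strains were compared, the arrays were set against probes that differ between the strains without HFD. On the 12 chow arrays of aorta and muscle, 22 of 26160 probes differed between KO and WT at a limma adjusted p under 0.05, 9 higher and 13 lower in KO (0.0344% and 0.0497% of the probes). No HFD array took part in that choice. Of the 12 named genes behind 14 of these probes, 8 lie on the chromosome that carries Lgals3. Of the probes with a gene symbol tested in muscle on HFD, 3.47% lie there, a share of probes and not of genes. Dlgap5, a mitotic spindle gene, is the protein-coding gene next to Lgals3 in the annotation used here. The others on that chromosome were Trim13, Pcdh17, Cysltr2, Tmem254a, Rpgrip1, Supt16 and Rnase1.

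On the muscle arrays of HFD trials 2 and 3 these probes sat at the level of their labelled strain. In both trials all 22 differed in the direction seen on chow. On the arrays of trial 1 they did not. On a scale where 0 is the mean of WT chow and 1 the mean of KO chow in muscle, the median position of the 22 probes was 0.50, 0.07 and -0.08 on the WT HFD arrays of trials 1, 2 and 3. It was 0.31, 1.09 and 1.00 on the KO HFD arrays of trials 1, 2 and 3. Only 8 of the 22 probes differed in the direction of chow in trial 1, and 1 did so by more than 1 on the log2 scale, against 20 in trial 2 and 21 in trial 3. Both arrays of trial 1 therefore lay between the strains and near each other.

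**Figure D1:**
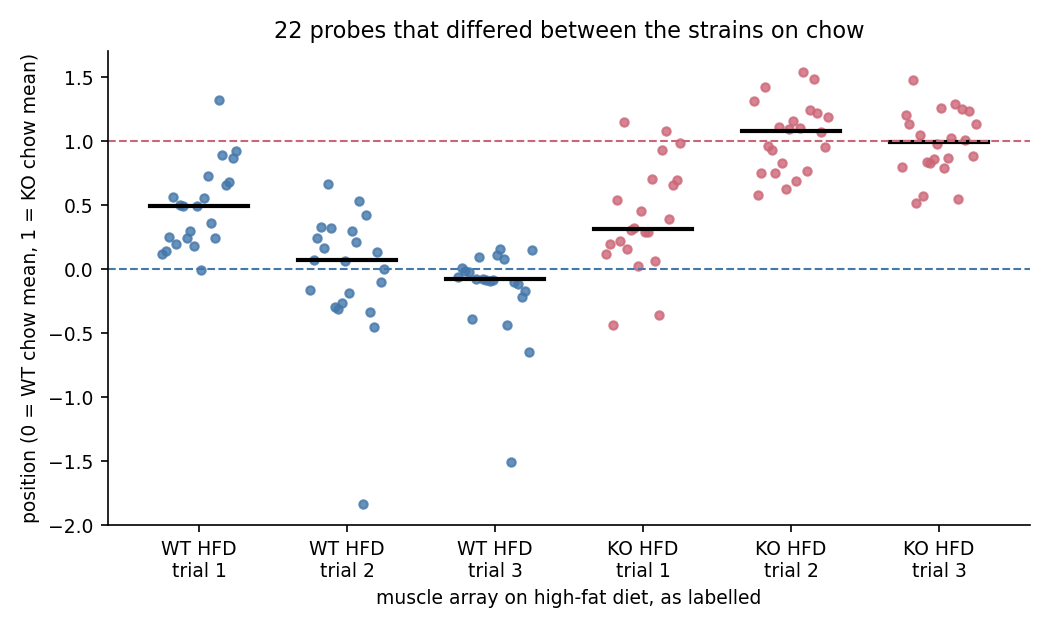
Position of 22 probes that differed between the strains on chow (vertical axis, 0 = mean of WT chow, 1 = mean of KO chow, muscle) on each muscle array on HFD (horizontal axis, as labelled). Points are probes and bars are medians. The arrays of trials 2 and 3 sit near 0 (WT) or 1 (KO), and both arrays of trial 1 lie between, with medians of 0.50 (WT) and 0.31 (KO).

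Trim13, a ubiquitin ligase gene, shows the pattern. Its log2 level was 0.58, 2.13 and 1.58 in WT HFD and 0.60, -5.98 and -3.15 in KO HFD in trials 1, 2 and 3. Cp, which encodes the copper-carrying ferroxidase ceruloplasmin, was at -0.03, 0.65 and 1.67 in WT HFD and at 0.04, -2.52 and -2.68 in KO HFD. For both genes the arrays of trial 1 differed by less than 0.1, and the KO arrays of trials 2 and 3 lay far below all WT arrays. Over the 24419 to 24453 probes tested with values on both arrays, Pearson's r between the KO and WT arrays was 0.984 in trial 1, 0.959 in trial 2 and 0.957 in trial 3, a description across probes that are not independent. The share of probes that differed by more than 1 log2 between the strains was 5.77% in trial 1, 17.6% in trial 2 and 15.2% in trial 3. The slides of trial 1 were scanned in a session of their own, and they also held the chow arrays of that trial. On the muscle chow arrays of trial 1, KO minus WT was -6.32 for Trim13 and -3.32 for Cp. Those chow arrays took part in the choice of the probes. What put the arrays of trial 1 between the strains was not tested. The main counts are given over 3 trials and over trials 2 and 3, a choice made after these values were seen.

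Lgals3 itself was measured by 1 probe, well above background on all 6 arrays. Its log2 level was 3.61, 3.27 and 3.46 in WT HFD and 4.31, 6.31 and 5.04 in KO HFD in trials 1, 2 and 3. Every array labelled KO was above every array labelled WT, as for 2.56% of all probes tested. The difference was 1.77 (SE 0.43, n = 3 per group, limma unadjusted p = 0.0016, adjusted p = 1.0) and 2.31 without trial 1 (limma unadjusted p = 4.9e-04, adjusted p = 0.239). The position of the probe within the gene, inside or outside the deletion, was not analysed here, so the probe is no check of the labels. The paper reports that PCR within the deleted region gave no product in KO and that aortic lysates lacked the protein. A higher signal at this probe is therefore not read as more galectin-3. On chow the difference was 0.26, and in the aorta on HFD 1.45 (SE 0.60), with -0.79, 2.90 and 2.23 in trials 1, 2 and 3, so that the aortic arrays of trial 1 had the opposite sign.

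The other galectins stayed near the spread between trials. Lgals8 was at 3.07, 3.73 and 3.11 in WT HFD and at 2.90, 2.68 and 3.02 in KO HFD, so that the groups did not overlap, but the difference was -0.43 (SE 0.25, limma unadjusted p = 0.115). Lgals1, Lgals4 and Lgals7 differed by between 0.05 and 0.65, with standard errors up to 1.33. The sign of Lgals7 rested on trial 1, where it differed by 4.10, and without that trial it differed by -1.08. Of 7 galectin list members tested, which include the galectin-3 binding protein Lgals3bp, Lgals3 was the 1 with an unadjusted p under 0.05 (3.30% of all probes).

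Across all probes, no transcript passed the adjusted threshold between KO HFD and WT HFD over 3 trials. Of 24478 probes tested in limma, 0 had an adjusted p under 0.05 (0.00% in each direction) and the smallest adjusted p was 0.161. At an unadjusted p under 0.05, 416 were higher in KO (1.70%) and 391 lower (1.60%), 807 together (3.30%). With the trial as a replicate block the calls were still 0, and 1421 probes had an unadjusted p under 0.05 (5.81%). The methods' t-test gave 514 such probes and 0 after Benjamini-Hochberg adjustment. The median difference over all tested probes was 0.03 and the median standard error was 0.37, and the number of arrays limits the precision.

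Without the trial 1 arrays on HFD, 4 probes were called (0.0163% of those tested), all higher in KO, and 1350 had an unadjusted p under 0.05 (5.52%). With the replicate block added, 0 were called. The called probes were both probes of Ifi44l, an interferon-induced gene, the probe of Dlgap5 and a probe without a gene symbol. All 4 are among the 22 probes on which the choice of trials rested, so that the calls are a description and no independent evidence. The Ifi44l probe with the larger difference was at -2.95, -8.46 and -7.59 in WT HFD and at -2.58, -1.40 and -1.73 in KO HFD. Dlgap5 was at -4.22, -8.34 and -7.48 in WT HFD and at -5.20, -2.13 and -2.90 in KO HFD. The WT arrays of trials 2 and 3 were not well above background at either probe, and the WT array of trial 1 was. Both probes were tested only because all KO arrays were well above background. Over trials 2 and 3, KO was at least 18.3-fold higher than WT for this Ifi44l probe, at least 4.63-fold for the other and at least 9.48-fold for Dlgap5, measured against the lowest signal well above background on each WT array.

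Of the 22 probes, 21 were tested in muscle on HFD. An unadjusted p under 0.05 was found for 16 of 21 over 3 trials (3.30% of all probes). The muscle chow arrays helped to choose these probes and also enter the spread estimated in this fit. These p-values are therefore not independent of the choice. The values of these probes over trials 2 and 3 are given without a test, since those trials were chosen on these probes. Fkbp5, a cochaperone of the glucocorticoid receptor, had the largest difference among the named genes higher in KO after Ifi44l and Dlgap5. It was at -1.88, -4.60 and -4.17 in WT HFD and at -2.66, -1.19 and -0.51 in KO HFD. Its difference was 2.10 (SE 0.69, limma unadjusted p = 0.0111) over 3 trials and 3.54 over trials 2 and 3. The probes of Fkbp5 disagreed, 2 of 3 tested having this sign, and the brightest differed by -0.70 over 3 trials. Pcdh17, an adhesion protein of the protocadherin family, was at 0.63, 1.54 and 1.87 in WT HFD and at 0.72, -0.64 and -0.39 in KO HFD. KO minus WT in trials 2 and 3 was -2.74 and -1.77 for 1 of the probes of Rpgrip1, a gene of the photoreceptor cilium, -1.71 and -1.84 for Tmem254a, and -1.40 and -1.52 for Cysltr2, a leukotriene receptor. It was 1.13 and 0.99 for Supt16, a subunit of the histone chaperone FACT, 1.26 and 1.84 for Glt28d2, and 1.80 and 1.43 for Rnase1, a secreted ribonuclease of endothelium. In trial 1 these 6 genes lay between -0.86 and 1.10, and only Rpgrip1 had the sign of the other trials.

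A smaller set of transcripts differed by more than 1 log2 in the same direction in every trial, trial 1 included. This criterion, used in the study for HFD against chow, was met by 34 probes higher in KO (0.139% of those tested) and 51 lower (0.208%), which hold 22 and 27 probes with a gene symbol. Over trials 2 and 3 alone it was met by 511 (2.09%) and 348 (1.42%). The arrays of trial 1 lay between the strains on the 22 chow probes, so that a difference in trial 1 need not be a strain difference. Among the arrays of 1 group, between 15.9% and 30.1% of probes differed by more than 1 between trials. Most of the probes were dim, since 6 of the 34 and 10 of the 51 were well above background on all 6 arrays. The others were tested because all arrays of 1 group were well above background, a filter that favours genes high in that group. Adjusted p values were 1.0 for the 29 genes named from this set, which are 14 higher and 15 lower of the 15 in each direction with the largest moderated statistic.

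Lrrc3, which encodes a leucine-rich repeat protein, led the genes that were higher in KO. It was at -4.17, -4.65 and -4.42 in WT HFD and at -2.44, -2.52 and -1.20 in KO HFD. The difference was 2.36 (SE 0.50, limma unadjusted p = 5.6e-04), and its other tested probe had the same sign. Fam160a1, well above background on all 6 arrays, was at -0.95, -0.83 and -1.53 in WT HFD and at 0.47, 0.24 and 0.02 in KO HFD, 1.35 apart (SE 0.39). In both genes no KO array overlapped a WT array.

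Btbd7, Ppp4r4 (a regulatory subunit of protein phosphatase 4), Apoc4 (an apolipoprotein), Fmr1nb, Apobec4, Olfr920 (an olfactory receptor), Bex4, Trim34a, Runx2 (the transcription factor of bone formation) and Lct (lactase) were higher in KO, with fitted differences between 1.27 and 2.95. Trim34a was well above background on all 3 WT arrays, Olfr920 and Lct on 2 and the other 7 on 1, so that the WT levels of these 9 rest in part on signals not well above background. Slc25a25, a mitochondrial carrier of ATP-Mg and phosphate, was not well above background on any WT array, and KO was at least 2.83-fold higher. It was tested only because all KO arrays were well above background, so that its direction is tied to the filter. A probe of Mki67, the marker of proliferating cells, that was well above background on 1 WT array was at -5.98, -8.26 and -7.47 in WT HFD and at -4.78, -2.95 and -4.35 in KO HFD. The gene's other probe had the same sign and is described with the cell cycle genes. Of the tested probes of Slc25a25 and Trim34a, 1 of 3 and 1 of 3 had the sign given here, so that the probes of these genes disagreed.

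Among the genes lower in KO, Cds1 and Arid5a differed by similar amounts in each trial. Cds1 makes CDP-diacylglycerol, a precursor of phosphatidylinositol. It was at -1.61, -1.49 and -1.12 in WT HFD and at -2.94, -2.78 and -2.80 in KO HFD, a difference of -1.43 (SE 0.32, limma unadjusted p = 8.7e-04). Arid5a, which encodes an RNA-binding protein that stabilizes inflammatory transcripts, was at -0.89, -0.92 and -0.22 in WT HFD and at -2.22, -2.05 and -1.61 in KO HFD, a difference of -1.28 (SE 0.32). Both were well above background on all 6 arrays, and without trial 1 their differences were -1.48 and -1.26.

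Dnajc27, Strbp, Nudt12, Shisal2b, Elf1 (an ETS transcription factor of blood cells), Tyro3 (a receptor of the TAM family) and Faap24 (a Fanconi anaemia gene) were lower in KO, with fitted differences between -2.48 and -1.18. Dnajc27 and Nudt12 were well above background on 2 KO arrays and Shisal2b and Elf1 on 1, and the other tested probe of Nudt12 had the opposite sign. The list also held immune cell genes. Treml4, a receptor of myeloid cells, was at -3.35, -3.99 and -3.03 in WT HFD and at -4.59, -8.09 and -7.31 in KO HFD. Cr2, complement receptor of B cells, was at -4.12, -5.13 and -3.34 in WT HFD and at -5.21, -6.78 and -7.99 in KO HFD. Gzmb, the granzyme of cytotoxic lymphocytes, was well above background on all WT arrays and on no KO array, and WT was at least 1.53-fold higher. The same held for Ccdc141, Gria3 and Virma, with WT at least 2.79-fold, 2.57-fold and 1.69-fold higher. Gzmb and these genes were tested only because all WT arrays were well above background, so that their direction is tied to the filter. The summed signal of 16 macrophage markers, in multiples of the 75th percentile, lay between 4.00 and 25.2 in WT HFD and between 1.97 and 57.3 in KO HFD. That of 8 lymphocyte markers lay between 0.414 and 2.99 in WT HFD and between 0.599 and 1.19 in KO HFD. The part of these cells in the values above was not tested.

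**Figure D2:**
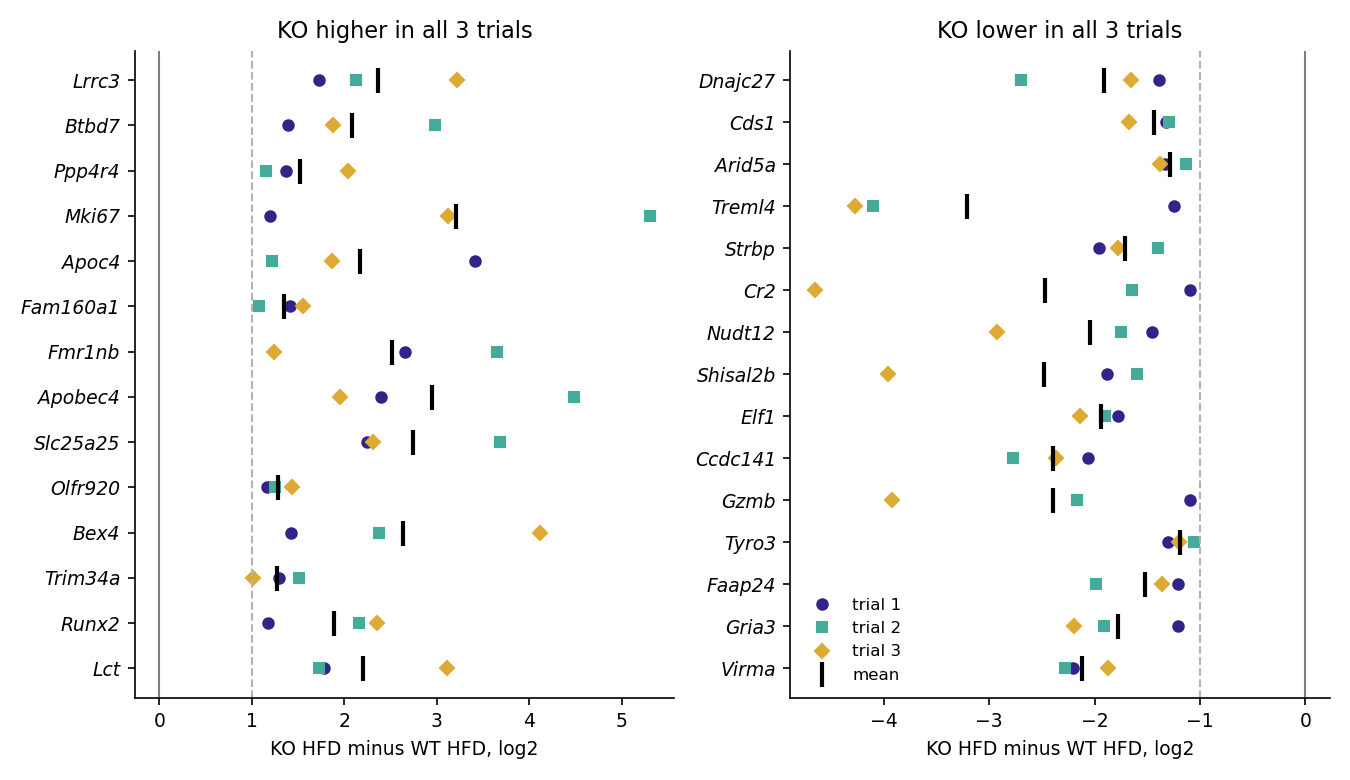
KO HFD minus WT HFD (horizontal axis, log2) in each trial for 14 genes higher and 15 lower in KO, from those with the largest moderated statistic past 1 log2 (dashed line) in all 3 trials. Points are trials and bars are means. Fam160a1, Cds1, Arid5a and Tyro3 differed by similar amounts in the 3 trials, and Mki67, Bex4, Treml4 and Cr2 spread over more than 2 log2 units.

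Of the 30 gene lists, that of the circadian clock had the most members with an unadjusted p under 0.05 over 3 trials. Without trial 1 it had 2, as did the interferon response and the smooth muscle and pericyte lists. In the clock, Arntl and Clock drive transcription from E-boxes (the letters CACGTG), among others of the Per, Cry and Nr1d genes and of the PAR bZIP factors Dbp, Tef and Hlf. The Nr1d proteins in turn repress Arntl and Nfil3 through sites built on AGGTCA. Dbp and Nfil3 act on the same sites with opposite effect. The 250 bases before the annotated start of Ciart (a repressor of the clock) and Tef, which hold CACGTG, and of Nfil3, which holds AGGTCA on the opposite strand, are shown as examples of windows that hold the letters. The windows of other genes of the list hold neither, among them those of Dbp, Nr1d1 and Arntl, and 1 window of Per1 holds both. They were taken from RefSeq (GRCm38.p6), run 5′ to 3′ on the strand of the gene, and carry the searched letters in capitals.
Ciart, chr3:95882229-95882478, minus strand: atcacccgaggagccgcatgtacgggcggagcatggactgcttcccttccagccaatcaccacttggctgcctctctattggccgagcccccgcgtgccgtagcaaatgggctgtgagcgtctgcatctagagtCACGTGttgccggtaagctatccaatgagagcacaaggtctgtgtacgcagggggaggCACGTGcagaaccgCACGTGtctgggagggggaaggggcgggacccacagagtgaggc
Tef, chr15:81811164-81811413, plus strand: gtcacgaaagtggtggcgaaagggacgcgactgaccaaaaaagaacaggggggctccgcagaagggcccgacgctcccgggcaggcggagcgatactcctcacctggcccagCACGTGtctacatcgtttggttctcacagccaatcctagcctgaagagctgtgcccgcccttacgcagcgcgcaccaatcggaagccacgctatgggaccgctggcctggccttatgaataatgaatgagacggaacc
Nfil3, chr13:52981040-52981289, minus strand: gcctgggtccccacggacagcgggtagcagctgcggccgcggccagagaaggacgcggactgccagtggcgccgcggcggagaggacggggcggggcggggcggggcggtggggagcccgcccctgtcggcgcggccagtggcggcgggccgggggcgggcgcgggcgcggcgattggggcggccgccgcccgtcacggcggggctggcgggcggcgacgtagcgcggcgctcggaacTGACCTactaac

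Of 14 clock genes tested, 12 had such a window. CACGTG, a palindrome, was found in the windows of 4 of them (Ciart, Tef, Per1 and Cry1) and in 6.021% of all 32851 windows. AGGTCA on either strand was found in 4 (Nfil3, Nr1d2, Per1 and Clock) and in 14.02% of all windows. A match of letters is a description and does not show binding.

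Several genes driven by Arntl and Clock were higher in KO. Dbp was at 3.54, 2.51 and 2.42 in WT HFD and at 5.61, 4.22 and 3.13 in KO HFD. Tef was at 0.97, -0.04 and 0.76 in WT HFD and at 2.25, 0.96 and 1.47 in KO HFD. Nr1d1 was at -0.02, -1.48 and 0.41 in WT HFD and at 1.30, 1.14 and 0.70 in KO HFD. Within each trial the KO array was the higher for all 3 genes, and for Nr1d1 the groups did not overlap. For Dbp and Tef the arrays stood furthest apart in trial 1, the trial whose arrays lay between the strains on the chow probes. The differences were 1.50 for Dbp (SE 0.60, limma unadjusted p = 0.029), 1.00 for Tef (SE 0.42, unadjusted p = 0.0363) and 1.41 for Nr1d1 (SE 0.50, unadjusted p = 0.0169). Per2, Hlf and Ciart differed by 1.60 (SE 0.83), 1.02 (SE 0.79) and 0.94 (SE 0.64), above 0 in every trial, with unadjusted p = 0.0797, 0.22 and 0.169 in limma.

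Arntl and Nfil3, which peak in the phase opposite to Nr1d1, were lower in KO. Arntl, the core activator, was at 0.96, 2.05 and 1.81 in WT HFD and at -0.07, 0.49 and 0.98 in KO HFD. Nfil3 was at 1.63, 2.10 and 1.69 in WT HFD and at 0.71, 1.15 and 1.10 in KO HFD, with no overlap between the groups. The Arntl difference was -1.14 (SE 0.34, limma unadjusted p = 0.0064) and that of Nfil3 -0.82 (SE 0.29, unadjusted p = 0.0164). Clock differed by -0.07 (SE 0.34), and Per1 by -0.95, -0.03 and 0.97 in trials 1, 2 and 3.

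Over the list, 3 of 14 members were higher and 2 lower at an unadjusted p under 0.05 (1.70% and 1.60% of all probes), 6 were above 0 and 2 below 0 in every trial (15.9% and 11.5%), and none had an adjusted p under 0.05. The median difference of the list was 0.34, against 0.03 over all probes. Without trial 1 the differences were 1.21 for Dbp, 0.86 for Tef, 1.45 for Nr1d1, -1.20 for Arntl and -0.77 for Nfil3, and 1 member was higher and 1 lower at an unadjusted p under 0.05 (Per2 and Arntl, against 3.19% and 2.32% of all probes). With the trial as a block, the unadjusted p of Dbp was 5.5e-04, of Tef 0.0017 and of Arntl 0.0025, and the adjusted p stayed above 0.05 for all.

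On the aortic arrays on HFD the differences were 1.45 (SE 0.65) for Dbp, 0.49 (SE 0.31) for Tef, 1.36 (SE 0.41) for Nr1d1, -0.55 (SE 0.34) for Arntl and -0.70 (SE 0.53) for Nfil3. In trials 1, 2 and 3 the aortic difference was 1.10, 1.78 and 1.47 for Dbp, 1.37, 1.49 and 1.24 for Nr1d1 and -1.17, 0.18 and -1.10 for Nfil3, which turned in trial 2. These arrays lay on slides of the same 3 trials, so that the tissues are not independent of each other. The aortic arrays of trial 1 also stood close together on strain probes, with differences of -0.26, -6.71 and -5.07 for Trim13 and 0.14, -3.61 and -3.42 for Cp in trials 1, 2 and 3. On chow, in muscle, the difference was -0.04 for Dbp, 0.11 for Tef, 1.29 for Nr1d1, 0.08 for Arntl and -0.20 for Nfil3. The difference between HFD and chow had an unadjusted p of 0.027 for Arntl and of 0.096 for Dbp in limma, and an adjusted p of 1.0. The hour at which each pool of mice was taken is not given in the sources used here.

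**Figure D3:**
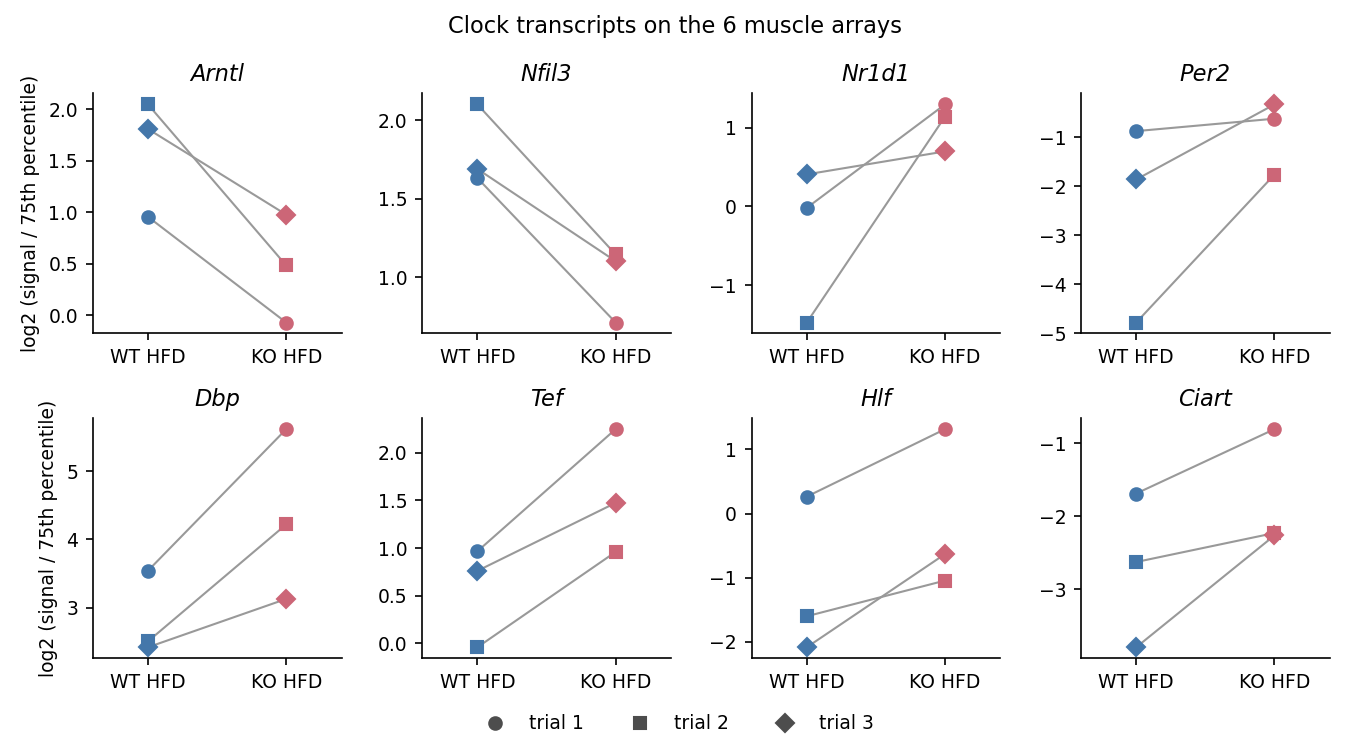
Log2 level over the array's 75th percentile (vertical axis, own scale in each panel) of 8 clock transcripts on the 6 muscle arrays on HFD. Points are arrays, symbols mark the trial and lines join the arrays of a trial. The 8 are those of the 14 tested list members that had the same sign in every trial, so that their direction was fixed by this choice. The KO array was lower in every trial for Arntl and Nfil3 and higher in every trial for the other 6 genes.

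Endothelial genes as a class differed little. None of 20 tested endothelial markers had an unadjusted p under 0.05, and their median difference was 0.08. Pecam1, Cdh5, Kdr and Eng lay between -0.09 and 0.06, with standard errors up to 0.41. Of 10 genes typical of muscle capillaries, 6 were above 0 in every trial and none below (15.9% and 11.5% of all probes), and none had an unadjusted p under 0.05. Timp4, an inhibitor of matrix metalloproteases, was at 5.34, 6.27 and 5.93 in WT HFD and at 6.19, 7.03 and 6.15 in KO HFD, a difference of 0.61 (SE 0.31, limma unadjusted p = 0.0753). Rgcc, a regulator of the cell cycle, differed by 0.34 (SE 0.32). The arterial and venous lists had medians of 0.10 and -0.01 and no member with an unadjusted p under 0.05, Efnb2, Gja4, Gja5 and Hey1 lying between -0.63 and 0.36 and Nr2f2, Ephb4, Selp and Sele between -0.60 and 0.15.

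Of 14 genes tested for the uptake and handling of fatty acids and 13 for their oxidation, 6 and 5 were above 0 in every trial and none below (15.9% and 11.5% of all probes), with median differences of 0.16 and 0.06. In each list 1 gene had an unadjusted p under 0.05, against 3.30% of all probes. Cd36, Fabp4, Gpihbp1 and Lpl lay between 0.11 and 0.40, and Lpl, the lipase held on capillaries, was at 5.02, 5.19 and 5.10 in WT HFD and at 5.37, 5.72 and 5.41 in KO HFD (difference 0.40, SE 0.23, limma unadjusted p = 0.107), without overlap between the groups. Slc27a3, which had such a p in the uptake list, is an acyl-CoA synthetase of the fatty acid transport protein family and was at 1.02, 1.85 and 1.97 in WT HFD and at 1.37, 0.53 and 0.53 in KO HFD. Its difference of -0.81 (SE 0.36, limma unadjusted p = 0.0454) was -1.39 without trial 1 (unadjusted p = 0.0034), and the arrays of trial 1 had the opposite sign. In the oxidation list Ucp2, an uncoupling protein of the mitochondrial membrane, was at 1.51, 0.71 and 0.87 in WT HFD and at 2.05, 1.40 and 1.84 in KO HFD, a difference of 0.74 (SE 0.28, limma unadjusted p = 0.023). Cpt1a, Cpt1b, Cpt2 and Acadl lay between -0.13 and 0.42.

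No gene of insulin signalling and glucose uptake had an unadjusted p under 0.05 (0 of 21 tested, median difference 0.02). Insr, Irs1, Igf1 and Igf1r lay between -0.33 and 0.36, with standard errors up to 0.83. The median difference of the list was -0.01 without trial 1. The haemostasis list (0 of 17, F3, Vwf, Thbd and Procr between -0.97 and 0.36), the matrix list (0 of 19, Col4a1, Col4a2, Col15a1 and Col18a1 between -0.29 and 0.14), the antioxidant list (0 of 18, Gpx1, Gpx3, Sod1 and Sod2 between -0.15 and 0.31), the receptors of glycated and scavenged ligands (0 of 9, Ddost, Prkcsh, Marco and Scarb1 between -1.02 and 0.04) and the immediate early genes (0 of 14, Fos, Fosb, Jun and Junb between -0.19 and 0.10) had no such member either.

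In vasoregulation, Npr1, the receptor of atrial natriuretic peptide, was at -4.25, -3.60 and -3.85 in WT HFD and at -3.57, -3.34 and -2.20 in KO HFD. The difference was 0.86 (SE 0.37, limma unadjusted p = 0.039), the 1 of 22 members tested with such a p (3.30% of all probes), while Nos3, Nos2, Edn1 and Ednra lay between -0.34 and 0.60. In angiogenic signalling, Angpt2, the antagonist of Angpt1 at the Tie2 receptor, was at 3.39, 4.01 and 3.80 in WT HFD and at 3.18, 3.21 and 2.93 in KO HFD. The difference was -0.63 (SE 0.26, limma unadjusted p = 0.0327), the 1 of 18 members tested with such a p, and the groups did not overlap. Vegfa, Vegfc, Flt1 and Kdr lay between -0.12 and 0.44. Without trial 1 the differences were 0.96 for Npr1 (limma unadjusted p = 0.051) and -0.84 for Angpt2 (unadjusted p = 0.0256).

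Genes of the interferon response were more often below 0 in every trial than above. Of 18 tested, 7 were below 0 in every trial and 1 above (11.5% and 15.9% of all probes), with a median difference of -0.20. The median was 0.10 in trial 1, -0.23 in trial 2 and -0.29 in trial 3. At an unadjusted p under 0.05, 1 was lower over 3 trials (1.60% of all probes) and 2 without trial 1 (2.32%). Stat2, a subunit of the transcription factor that interferon activates, was at 1.09, 1.29 and 1.04 in WT HFD and at 0.80, -0.53 and 0.61 in KO HFD (difference -0.85, SE 0.34, limma unadjusted p = 0.0288), and trial 2 carried most of it. Irf7 was at -0.28, -0.57 and 0.19 in WT HFD and at -0.73, -0.74 and -0.65 in KO HFD (difference -0.49, SE 0.31), and Ifit1, Ifit2, Ifit3 and Isg15 lay between -0.33 and 0.11. Ifi44l, interferon-induced but outside this list and among the probes chosen on chow, went the other way. Both of its probes were higher in KO in every trial. Tap1, the peptide transporter of antigen presentation, was at -0.49, -0.99 and -0.50 in WT HFD and at -1.46, -1.63 and -1.41 in KO HFD, a difference of -0.84 (SE 0.29, limma unadjusted p = 0.0156). It was the 1 of 9 antigen presentation genes with such a p (3.30% of all probes), and without trial 1 its unadjusted p was 0.0765. Among adhesion genes and chemokines, 0 of 12 had such a p, and Icam1, a ligand of leukocyte integrins, was at -2.93, -2.02 and -0.98 in WT HFD and at -3.07, -3.47 and -2.59 in KO HFD (difference -1.07, SE 0.60, limma unadjusted p = 0.10).

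The markers of other cells varied widely between arrays. The mean log2 level of 18 muscle fibre markers (Acta1, Ckm, Myh4, Myh1 and others) was 2.52, -0.12 and -0.19 in WT HFD and 2.59, 0.29 and -0.30 in KO HFD. The mean of 16 macrophage markers was -0.77, -3.71 and -1.65 in WT HFD and 0.37, -3.24 and -5.42 in KO HFD. That of 13 fibroblast markers was 3.42, 0.07 and 1.24 in WT HFD and 3.19, 1.92 and 0.62 in KO HFD. Trial 1 was the highest of its group in all 3 lists, and the groups overlapped.

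Within a trial the macrophage list was therefore uneven. Csf1r, the receptor that macrophages need for survival, was at 0.67, -2.20 and -0.42 in WT HFD and at 1.58, -2.92 and -4.69 in KO HFD. Adgre1, a surface marker of mouse macrophages, and C1qc, a chain of complement C1q, differed by 1.58 and 1.28 in trial 1 and by -6.10 and -3.44 in trial 3. Ptprc, which encodes the CD45 used to remove leukocytes in the sort, was at -0.83, -5.55 and -0.94 in WT HFD and at -0.83, -3.05 and -5.31 in KO HFD. The median difference of the 13 tested members was 1.13 in trial 1, 0.14 in trial 2 and -4.37 in trial 3, and 0 had an unadjusted p under 0.05 over 3 trials. The KO HFD array of trial 3 held 8 of 16 members well above background, against 13 to 16 on the other arrays.

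The mean of 7 lymphatic markers was -0.13, -2.71 and -1.45 in WT HFD and -0.94, -2.53 and -3.54 in KO HFD. Lyve1, a hyaluronan receptor of lymphatic endothelium and of some macrophages, was at 3.15, -0.24 and 2.00 in WT HFD and at 2.16, -1.26 and -2.33 in KO HFD. It was lower in KO in every trial, by -0.98, -1.02 and -4.33, with a standard error of 1.35 and a limma unadjusted p of 0.144. The list's median was -1.35, with 0 of 6 members at an unadjusted p under 0.05. Pdpn and Flt4, also lymphatic, differed by 0.12 and -0.01, and Prox1, the transcription factor that defines the lineage, was well above background on 2 arrays of each group and was not tested.

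Fibroblast markers parted the strains in opposite directions in trials 2 and 3, with medians of 1.83 and -0.91, and Lum, a proteoglycan of collagen matrix, was at 3.84, 0.64 and 1.72 in WT HFD and at 3.70, 3.35 and 0.75 in KO HFD. Muscle fibre, adipocyte, satellite cell, Schwann cell and lymphocyte lists had medians between -0.46 and 0.13 and no member with an unadjusted p under 0.05, and the smooth muscle and pericyte list had none over 3 trials and 2 of 13 higher without trial 1 (3.19% of all probes). Of 7 red cell and platelet genes tested, 3 were above 0 in every trial and none below (15.9% and 11.5% of all probes). None had an unadjusted p under 0.05. Hba-a1 and Alas2, of red cells, were higher in KO in every trial, with differences of 0.90 (SE 0.50) and 0.80 (SE 0.48). With Slc4a1 and Pf4 included, the differences lay between -0.18 and 0.90.

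**Figure D4:**
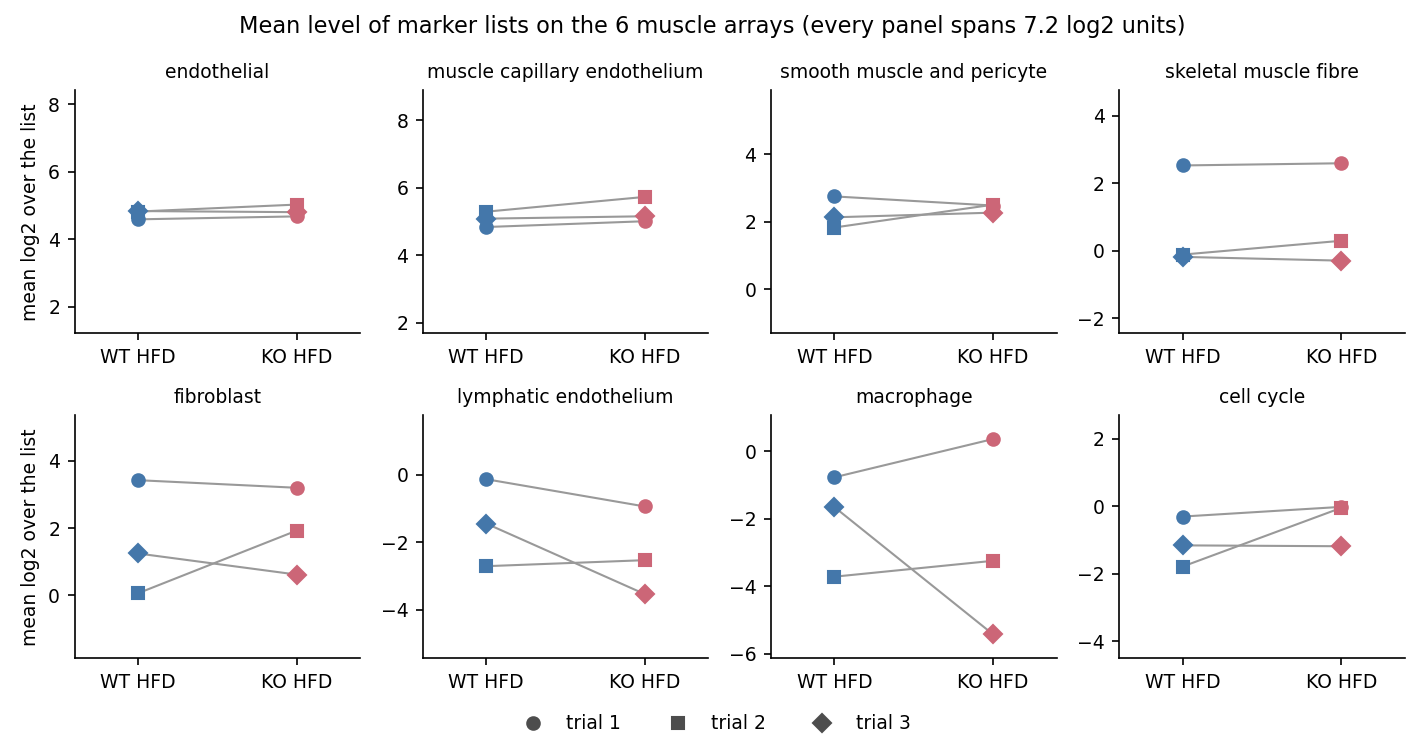
Mean log2 level (vertical axis) of 8 marker lists on the 6 muscle arrays on HFD. Every panel spans the same range, symbols mark the trial and lines join the arrays of a trial. The endothelial list lay between 4.60 and 5.03 on all arrays, the macrophage list between -5.42 and 0.37, and the fibroblast and cell cycle lists of KO and WT stood furthest apart in trial 2.

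Cell cycle genes were higher in KO in trial 2. The median difference of 14 tested members was 0.28, 1.88 and -0.28 in trials 1, 2 and 3, and 0.65 in the fit, with 4 above 0 in every trial (15.9% of all probes) and 0 with an unadjusted p under 0.05. The brighter Mki67 probe was at -0.01, -2.38 and -1.32 in WT HFD and at 0.58, 0.59 and -0.90 in KO HFD, a difference of 1.33 (SE 0.70, limma unadjusted p = 0.0833). Ccnb1, the cyclin of mitotic entry, was at -2.52, -5.15 and -4.87 in WT HFD and at -2.02, -2.27 and -4.33 in KO HFD, and Top2a, Ccna2 and Ccnb1 differed by between 0.65 and 1.73. The WT array of trial 2, where these genes were lowest, was also the lowest in fibroblast markers, whose part in these values was not tested.

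Of 37 transcripts that the study names for muscle, 33 had a probe, and all 33 were tested. Of these, 13 were above 0 and 20 below, 3 were above 0 and 5 below in every trial (15.9% and 11.5% of all probes), and the median difference was -0.12. Gbp4, an interferon-induced GTPase, was at 1.76, 2.24 and 2.26 in WT HFD and at 1.06, 1.49 and 1.64 in KO HFD (difference -0.69, SE 0.34, limma unadjusted p = 0.0702, and 0.00701 with the replicate block), and the groups did not overlap, as for 2.73% of all probes with KO lower.

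Retnla, a secreted product of alternatively activated macrophages, was at 3.74, 2.75 and 2.77 in WT HFD and at 4.85, -2.83 and -1.70 in KO HFD. Its difference was -2.98 (SE 2.09, limma unadjusted p = 0.182) over 3 trials and -5.03 without trial 1 (unadjusted p = 0.0386, adjusted p = 0.868). Hyal3, a hyaluronidase gene, and Ier2, an immediate early gene, differed by 1.15 and 1.18 without trial 1 (limma unadjusted p = 0.0281 and 0.017), where 5.52% of all probes had an unadjusted p under 0.05, and by 0.67 and 0.61 over 3 trials. The probes of Ier2 disagreed, and the other tested probe differed by -0.03.

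No transcript had a strain difference that differed between the diets at the adjusted threshold. In the interaction of strain and diet in muscle, 0 of 24478 probes had a limma adjusted p under 0.05 and 544 an unadjusted one (2.22%). KO chow against WT chow, in the same fit, gave 0 and 553 (2.26%). Lrrc3, Nr1d1 and Runx2 were also higher in KO on chow, by 1.82, 1.29 and 1.73, whereas Dnajc27, Cds1, Dbp and Arntl differed by between -0.04 and 0.13.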

How the data were processed

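The authors deposited scanner output of 1-colour Agilent arrays whose processed signal is an intensity, background-subtracted and detrended by Feature Extraction (version 10.5.1.1 per the file headers, 9.1 per the submitters' processing notes). They also deposited a log2 table, which equalled the log2 processed signal after 75th percentile scaling plus a constant, within 0.01, for 100% of the probes compared. Its column medians lay between 7.96 and 8.37 on the 6 arrays used.

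Here log2 of the processed signal minus the array's 75th percentile over non-control spots was used, without outlier flags and with the spots of a probe averaged. Of 41174 probes, 27479 were matched by accession to 1 RefSeq symbol, and the others are unnamed. Probes well above background on all arrays of KO HFD or of WT HFD were tested, 126 of them with a missing HFD value. limma 3.58.1 (R 4.3.3) fitted 4 group means over 12 muscle arrays, with Benjamini-Hochberg adjustment. Lists used the probe of a gene with the highest mean signal. The chow probes came from a limma fit over 12 chow arrays with a mean for each tissue.

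The labels number trials, and the arrays of a trial and tissue share a slide. Deviations of same-numbered KO and WT arrays correlated at 0.503, 0.293 and 0.382 across probes, so that the numbers pair the arrays, and the trial was a replicate block in an alternative fit. Each array is a pool, and p-values measure the spread between 3 pools per group.

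Genes were named by rule: Lgals3, genes with an adjusted p under 0.05, 15 per direction past 1 log2 in every trial, the first 4 tested members of each list, members with an unadjusted p under 0.05, and transcripts the study names for muscle. Of the genes so named, 2 are not reported here. Others were chosen after their values were seen. The members and the 30 lists (6 to 23 genes) were chosen with earlier results of these data known. Alternatives were normexp (offset 50, on median signals), quantile normalization, the deposited table, other filters, left-out arrays and the methods' t-test. The fit was tested on simulated data.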

Additional observations from a re-analysis of the deposited data

Results flagged for a closer look

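In muscle, the KO minus WT difference of 4 named genes had one sign in all 3 HFD trials and the other sign in all 3 chow trials. Over all tested probes, 15.9% were above 0 and 11.5% below 0 in all 3 HFD trials. The share of all probes that also had the other sign on chow was not counted, so the 4 genes are a description. Ppp4r4 differed by 1.52 on HFD and by -2.07 on chow (limma interaction, unadjusted p = 4.6e-05). On HFD, 1 of 3 WT arrays measured Ppp4r4 well above background. Slc25a25 differed by 2.75 on HFD and by -2.34 on chow (limma interaction, unadjusted p = 0.0042). Its fitted value on HFD is set against signals not well above background on any WT HFD array, where KO was at least 2.83-fold higher, and 1 of its 3 tested probes had this sign. Npr1 differed by 0.86 on HFD and by -0.76 on chow (limma interaction, unadjusted p = 0.0097). Ciart differed by 0.94 on HFD and by -0.38 on chow (limma interaction, unadjusted p = 0.171). After adjustment over all probes the interaction p was 0.9999 for each of them, so that none of these differences between the diets passed the correction. Groups of 3 arrays were not tested for single outlying arrays.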

How the results depend on the processing

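No probe was called over 3 trials in the fit reported, with the replicate block, with normexp, quantile normalization, the deposited table or another filter, or by the methods' t-test after adjustment. Leaving out arrays gave 0 to 4 calls. Without the WT HFD array of trial 1 there were 4, all higher in KO (both Ifi44l probes and 2 without a symbol), and without the KO HFD array of trial 3 there was 1, lower and unnamed. The HFD arrays of trials 2 and 3, a setting chosen after seeing the data, gave 4, and 0 with the block.

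The 807 probes with an unadjusted p under 0.05 became 1421 with the replicate block, 1277 in the 6 HFD arrays with it, 1350 in HFD trials 2 and 3, 2197 with the block there, 1822 with the block and without trial 1, 514 by the methods' t-test, and 364 to 1335 when arrays were left out. The 85 probes past 1 log2 in every trial became 15 with normexp, 161 with no filter, 16 when all 6 arrays had to be well above background, and 222 to 859 when a trial was left out. The 22 probes called on chow became 8 with the block, 14 when all 12 arrays had to be well above background, and 1 to 3 without a trial. The cause of these changes was not tested, apart from the fewer or more probes and arrays that each setting uses.

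Lgals3 differed by 1.14 to 2.31 under every setting and was never called. The interaction had 0 calls under every setting run. Of 74 other named genes, 4 changed sign when arrays were left out: Adgre1 (-3.15 to 1.73), C1qc (-2.31 to 0.76), Csf1r (-3.15 to 0.095) and Lum (-0.56 to 1.46). For Adgre1 and C1qc the sign turned without the KO HFD array of trial 3 (1.73 and 0.76) or all of trial 3 (1.57 and 0.71), and for Csf1r without trial 3 (0.095). For Lum it turned without the KO HFD array of trial 1 (-0.02), the WT HFD array of trial 2 (-0.18) or trial 2 (-0.56). No other setting turned a sign among these 74 genes, and the replicate block changed no other call. Lgals7, which is not among the 74, was above 0 over 3 trials and at -1.08 without the HFD arrays of trial 1. Probes near background limit the criterion of 1 log2, since 16 of 85 were well above background on all 6 arrays.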
